A study of Arabidopsis thaliana with 3 samples.

Results

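A set of 10 genes of splicing regulators, all known for alternative splicing of their own transcripts, were followed in RNA of immature Arabidopsis thaliana inflorescences. They were taken by gene identifier: GRP7, GRP8, PTB1, PTB2, SR30, SR34, RS31, RS2Z33, SCL33 and SR45. All 10 were listed in all 3 libraries, among 26810 genes listed in any of them, and all 10 passed the filter on low values that left 20214 genes.

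Every library came from plants mutant for DCL1 (allele dcl1-7), whose product, a Dicer enzyme, releases microRNAs from their precursors. The plants received no treatment and were grown in 16 h light and 8 h dark, and buds were taken at about 4 weeks. GMUCT was done in 1 library and RNA-seq in 2, all on polyA RNA read in 50 nt. RNA-seq measures the level of polyA transcripts, while GMUCT reads the 5′ ends of polyA RNAs that have lost their cap, through decapping or internal cutting. All values are RPKM, reads scaled to gene length and library size.

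Splicing regulators bind exons, introns or splice sites of pre-mRNA and shift which sites the spliceosome uses. Many of them act on their own pre-mRNA: when the protein is plentiful, splicing moves to an isoform with a premature stop codon, which is often removed by nonsense-mediated decay or kept in the nucleus. The RPKM tables give 1 value per gene, so isoforms of a gene are counted together here.

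A single GMUCT library gives no replicate error for GMUCT. The RNA-seq libraries are given by their values and as mean ± SD (n = 2), and whether each came from its own plants is not stated in the labels. The p-values therefore rest on a spread that may be technical. Because tissue was bulk, fewer cells of a type and less RNA per cell cannot be told apart. The GMUCT library listed 26731 genes and the RNA-seq libraries 23809 and 22824. DCL1 itself had 7.57 RPKM in GMUCT and 16.04 and 15.18 RPKM in RNA-seq; no library of another genotype was analysed, so this does not check the genotype label. As markers of the labelled tissue, 6 floral organ and meristem genes summed to 354 RPKM in GMUCT and to 419 and 418 RPKM in RNA-seq. Among them LFY was low, at 0.67 RPKM in GMUCT and 1.00 and 1.63 RPKM in RNA-seq, and did not pass the filter. The 4 root genes summed to 3.03 RPKM in GMUCT and 2.24 and 1.39 RPKM in RNA-seq, with EXP7 and RHD6 at 0 in both RNA-seq libraries. The root gene COBL9 was at a level like that of LFY, with 1.30 RPKM in GMUCT and 1.74 and 1.15 RPKM in RNA-seq. The 3 seed storage genes summed to 1.49 RPKM in GMUCT and were all at 0 in RNA-seq.

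The 5 SR protein genes among the regulators, which carry an RNA recognition motif and an arginine and serine rich tail, were all lower in GMUCT than in RNA-seq. GMUCT was 4.42-fold below the RNA-seq mean for RS2Z33, 2.68-fold for SR34 and 2.17-fold for RS31. PTB2 was lower as well, also by 2.17-fold, whereas GRP7, GRP8, PTB1 and SR45 had GMUCT values of 0.89 to 1.07 times their RNA-seq means. None of the 10 was higher in GMUCT by the test. Over all tested genes 36.9% were lower and 32.1% higher. Among tested genes within the RNA-seq range of the 10, these shares were 49.1% and 25.2%. Of 14 other SR and SR-like genes, 7 were lower and 3 higher.

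**Figure D1:**
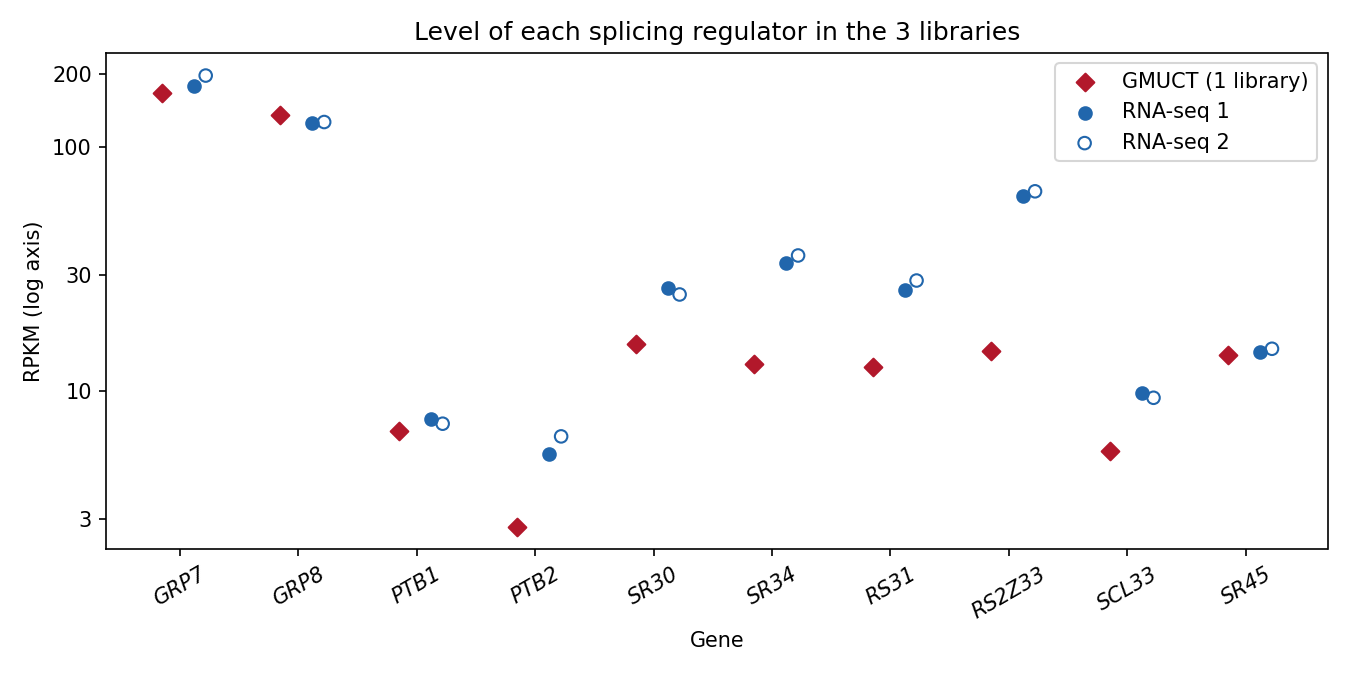
RPKM (log axis) of the 10 splicing regulators in the GMUCT library (red diamonds) and the RNA-seq libraries (filled and open blue circles). The red diamond lies below both circles for every gene except GRP8. Of all tested genes, 50.2% had GMUCT below both RNA-seq libraries. The gap is widest for RS2Z33, with 14.6 RPKM in GMUCT against 63.0 and 66.0 RPKM in RNA-seq.

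By limma on log2(RPKM + 0.5), with Benjamini-Hochberg adjustment over all genes at 0.05, 6 of the 10 were lower, 0 higher and 4 did not pass. At an unadjusted p under 0.05 the same number, 6, passed. Of all tested genes 69% passed, 36.9% lower and 32.1% higher. Among the 11746 tested genes with RNA-seq levels inside the range of the 10 (6.04 to 188 RPKM), 49.1% were lower and 25.2% higher, so 6 of 10 is not far from what genes of such levels show. A stricter rule, which needs no test, asked for at least a 2-fold difference from both RNA-seq libraries on that scale. On the low side 3 of the 10 met it, against 17.3% of all tested genes and 24.2% in the same range of levels. That count was 2 to 4 over the alternative settings at 2-fold. On the high side 0 met it, against 19.9% of all tested genes. That share was not computed in the same range of levels, where 25.2% were called higher against 32.1% of all tested genes. The median log2 ratio of GMUCT to RNA-seq was -0.70 over the 10 and -0.07 over all tested genes, or -0.37 in the same range of levels. With 1 residual degree of freedom, the test took the lone GMUCT library to vary like the RNA-seq libraries.

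GRP7 and GRP8 are small RNA-binding proteins with a glycine-rich tail, controlled by the circadian clock and by cold. GRP7 protein binds its own pre-mRNA and that of GRP8, which lowers the level of both. They were the most abundant of the 10 in both assays. GRP7 (AT2G21660) had 167 RPKM in GMUCT against 179 and 197 RPKM in RNA-seq, a log2 ratio of -0.17 (SE 0.09; adjusted p = 0.206). GRP8 (AT4G39260) had 136 RPKM in GMUCT against 125.9 and 126.9 RPKM in RNA-seq, a log2 ratio of 0.10 (SE 0.05; adjusted p = 0.167). GMUCT thus lay below both RNA-seq libraries for GRP7 and above both for GRP8, and neither gene passed the test. GRP8 changed sign, to -0.15, once a trend of the ratio with transcript length or exon number was taken out. With these trends removed GRP7 passed the test at -0.40 and -0.42 (adjusted p = 0.043 and 0.039). The difference between the 2 log2 ratios, GRP7 minus GRP8, was -0.27, or -0.21 and -0.33 against RNA-seq 1 and 2 alone.

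PTB1 and PTB2 are polypyrimidine tract-binding proteins, which bind pyrimidine-rich stretches near 3′ splice sites and in animals mostly repress nearby exons. Each acts on the splicing of its own transcript and of that of the other. They were the least abundant of the 10 in RNA-seq. PTB1 (AT3G01150) had 6.86 RPKM in GMUCT against 7.73 and 7.36 RPKM in RNA-seq, a log2 ratio of -0.13 (SE 0.09; adjusted p = 0.310). PTB2 (AT5G53180) had 2.78 RPKM in GMUCT against 5.55 and 6.53 RPKM in RNA-seq, a log2 ratio of -0.99 (SE 0.15; adjusted p = 0.023). GMUCT lay below both RNA-seq libraries for each gene, but the gap passed the test for PTB2 and not for PTB1. Their log2 ratios differed by 0.86 (PTB1 minus PTB2), by 0.72 and 1.01 against each RNA-seq library, and by 0.54 with the length trend removed. No test of such a difference between genes was made, since GMUCT had 1 library. PTB2 also had the widest gap between the RNA-seq libraries of the 10, a log2 difference of 0.22, wider than in 78.5% of tested genes. Its call was lost when genes with low values were not filtered out (adjusted p = 0.055).

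SR30 and SR34 are the plant counterparts of the human factor SF2/ASF, which promotes use of nearby splice sites. SR30 protein changes the splicing of its own gene and of SR34. SR30 (AT1G09140) had 15.7 RPKM in GMUCT against 26.4 and 24.9 RPKM in RNA-seq, a log2 ratio of -0.69 (SE 0.07; adjusted p = 0.011). SR34 (AT1G02840) had 12.9 RPKM in GMUCT against 33.4 and 36.0 RPKM in RNA-seq, a log2 ratio of -1.39 (SE 0.08; adjusted p = 0.0059). Both were lower in GMUCT than in either RNA-seq library. SR34 was the more abundant in RNA-seq and SR30 in GMUCT, so the order of the relatives turned between the assays. SR30 minus SR34 came to 0.70 in log2 ratio, and to 0.60 and 0.79 against each RNA-seq library.

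RS31 belongs to a group of SR proteins found in plants, and its splicing shifts with light through signals from the chloroplast. RS31 (AT3G61860) had 12.6 RPKM in GMUCT against 26.1 and 28.4 RPKM in RNA-seq, a log2 ratio of -1.09 (SE 0.08; adjusted p = 0.0082). RS2Z33, also from a plant group and marked by zinc knuckles between its RNA-binding and RS parts, controls the splicing of its own long intron. RS2Z33 (AT2G37340) had 14.6 RPKM in GMUCT against 63.0 and 66.0 RPKM in RNA-seq, a log2 ratio of -2.11 (SE 0.06; adjusted p = 0.0043). Of all tested genes 1.71% had a lower ratio. An annotated antisense lncRNA covers 25.9% of its exon length, and whether the authors counted by strand is not stated, so reads of the 2 strands may have been summed.

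SCL33 is one of the SC35-like proteins, and it binds a long intron of its own pre-mRNA. SCL33 (AT1G55310) had 5.69 RPKM in GMUCT against 9.83 and 9.40 RPKM in RNA-seq, a log2 ratio of -0.71 (SE 0.09; adjusted p = 0.016). GMUCT was below both RNA-seq libraries, yet the call was lost with the length trend removed (-0.30, adjusted p = 0.071). SR45, an SR-like protein with RS tails at both ends and a relative of human RNPS1, sits on mRNA near exon junctions and is needed for normal flower and root growth. SR45 (AT1G16610) had 14.1 RPKM in GMUCT against 14.4 and 14.9 RPKM in RNA-seq, a log2 ratio of -0.06 (SE 0.06; adjusted p = 0.475). Its assays were the closest of the 10. The sign of the SR45 ratio turned with each library centred on its median (0.067) and with the length, exon number or GC trend removed (0.19, 0.22 and 0.027), never past the test.

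**Figure D2:**
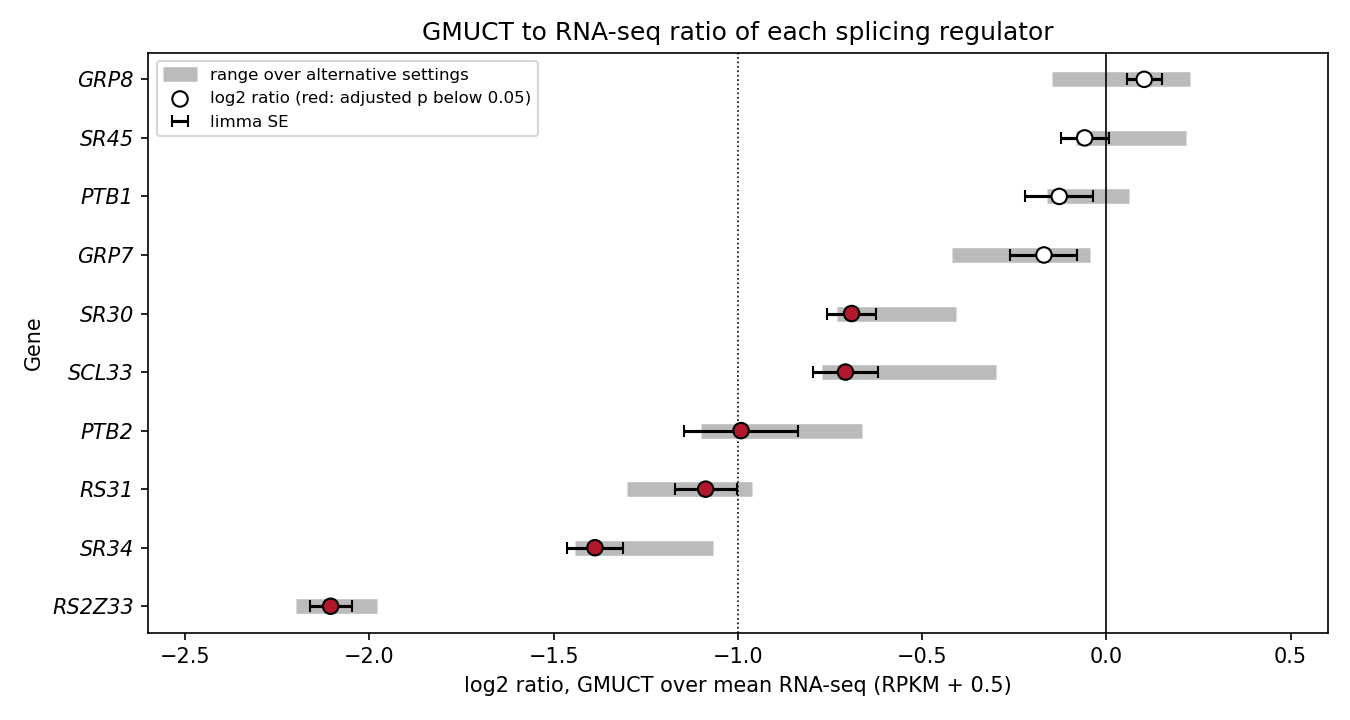
Log2 ratio of GMUCT to the RNA-seq mean for each regulator, ordered from highest to lowest, with the limma SE as bars and the range over alternative settings as grey bands; the dotted line marks a 2-fold lower GMUCT value. Red points passed the test; they run from -0.69 for SR30 to -2.11 for RS2Z33, and the 4 open points lie between -0.17 and 0.10.

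In all, GMUCT lay below both RNA-seq libraries for 9 of the 10 genes and above both for GRP8. Among all tested genes, 50.2% lay below both and 45.0% above both. These shares were not computed within the range of levels of the 10, where 49.1% were called lower against 36.9% of all tested genes. The order of levels differed between the assays below the GRP pair. RNA-seq ran GRP7, GRP8, RS2Z33, SR34, RS31, SR30, SR45, SCL33, PTB1, PTB2. GMUCT ran GRP7, GRP8, SR30, RS2Z33, SR45, SR34, RS31, PTB1, SCL33, PTB2. In RNA-seq only RS31 and SR30, neighbours in that order, had overlapping library values. In GMUCT the 5 genes from SR30 to RS31 spanned 15.7 to 12.6 RPKM, whereas in RNA-seq the means of the same 5 spanned 14.7 ± 0.354 to 64.5 ± 2.12 RPKM. The 5 SR genes summed to 61.5 RPKM in GMUCT and to 159 and 165 RPKM in RNA-seq, while the GRP pair summed to 303 RPKM in GMUCT and to 305 and 324 RPKM in RNA-seq.

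In the RefSeq annotation of TAIR10.1 the longest intron was above the median of tested genes, 269 nt, in all 10, from 275 nt in SR45 to 942 nt in SR30. In 9 there were more annotated transcripts than in the median gene, which has 1; RS31 had 1 and SCL33 and SR45 had 7 each. These regulators were picked for their splicing, so many transcripts are no independent finding. Annotated transcripts with a stop codon at least 50 nt before the last exon junction, the usual mark of decay targets, were present for SR30 (2 of 3), SR34 (4 of 5) and SR45 (2 of 7), and no such transcript was annotated for the other 7. Of the genes with such annotated transcripts, SR30 and SR34 were lower in GMUCT and SR45 near equal. Of the other 7, PTB2, RS31, RS2Z33 and SCL33 were lower as well, and GRP7, GRP8 and PTB1 did not pass. A link between such transcripts and the ratio was not tested. The stop codons were those of the annotated coding regions, so a gene without such an annotated transcript may still make one. All 6 annotated transcripts of PTB2 had the same distance from stop codon to last junction, with proteins of 299 to 429 residues. The same held for all 6 of RS2Z33, with proteins of 249 to 290 residues. No window of 50 bases within an exon of any of the 10 recurred elsewhere in the genome, so close relatives do not share exact reads of that length outside splice junctions.

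Exon number went with the ratio across the genome, and the regulators differ widely in it, from 3 exons in GRP7 and GRP8 to 13 in SR34. The median log2 ratio dropped with each step in exon number; it was 0.66 in 3120 tested genes with 1 exon and -0.69 in 2202 genes with 13 or more. Set beside genes with as many exons, RS2Z33, RS31, SR34 and PTB2 lay below the lower quartile. RS2Z33 (7 exons) had a lower ratio than all but 1.57% of its class, whose median was -0.25. RS31 (6 exons) was undercut by 17.2% of its class, SR34 by 16.5% and PTB2 (11 exons) by 23.5%. SR30, SCL33, GRP7 and GRP8 lay between the lower quartile and the median of their classes, and PTB1 and SR45 between the median and the upper quartile. The low ratios of SR30 and SCL33 were therefore within the middle of genes like them in exon number.

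**Figure D3:**
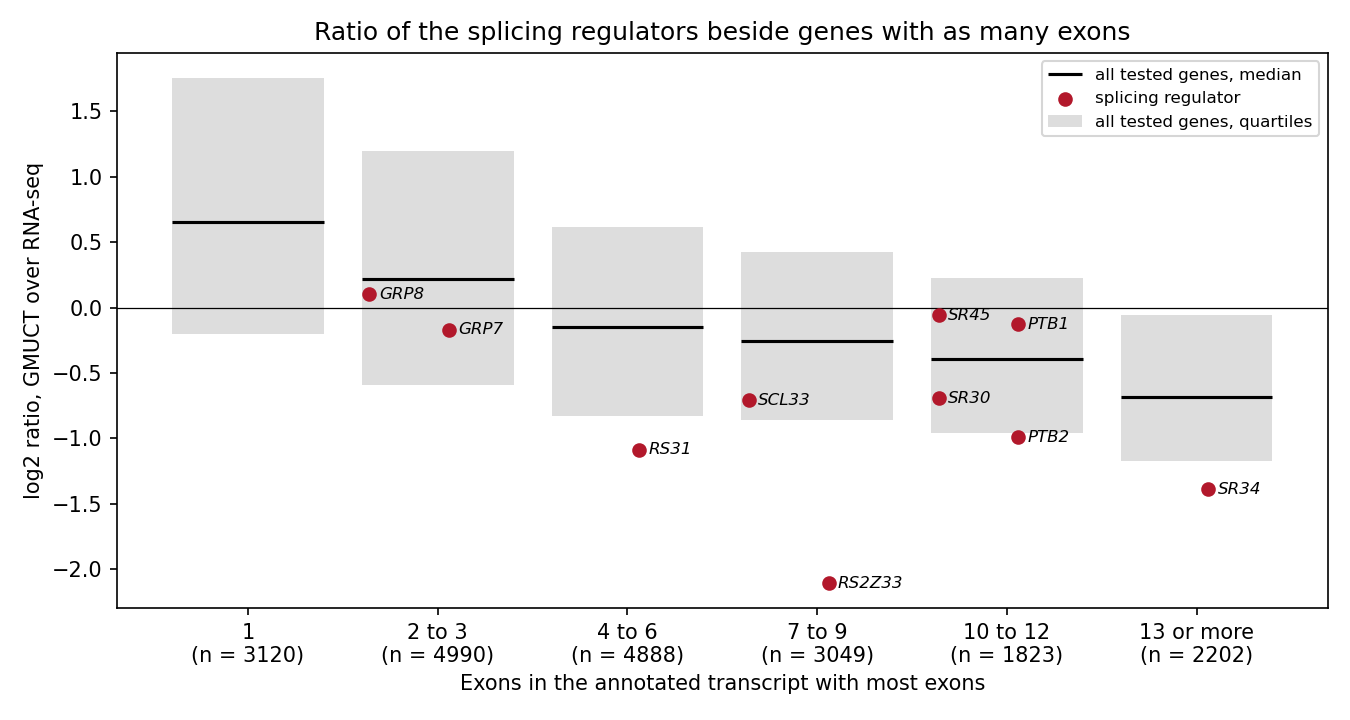
Log2 ratio of GMUCT to RNA-seq by exon number: grey bars span the lower to the upper quartile of all tested genes in a class, black lines are medians, and red points are the regulators. RS2Z33, RS31 and SR34 lie clearly under their grey bars and PTB2 just under its own, while SR45 and PTB1 lie above the medians.

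Other genes of splicing gave both directions. Among 14 further SR and SR-like genes, GMUCT was lower for 7 and higher for 3, while 4 did not pass, with a median log2 ratio of -0.31. With each library centred on its median, 6 of them were higher, while higher calls over all tested genes rose from 6489 to 8111. The highest were RS31a, with 20.8 RPKM in GMUCT against 6.07 and 5.64 RPKM in RNA-seq (1.75, adjusted p = 0.0059), and RSZ22, with 134 RPKM in GMUCT against 38.2 and 44.9 RPKM in RNA-seq (1.69, adjusted p = 0.0084). The lowest were SR34b, with 2.03 RPKM in GMUCT against 7.19 and 7.07 RPKM in RNA-seq (-1.59, adjusted p = 0.0066), and RS40, with 14.8 RPKM in GMUCT against 38.3 and 34.1 RPKM in RNA-seq (-1.26, adjusted p = 0.0088). RS31a is the closest relative of RS31 by name and group, and they lay on opposite sides, 1.75 and -1.09. An antisense lncRNA covers 27.2% of the exon length of RS31a. RS40 (-1.26) and RS41 (-0.80), also RS genes by name, were lower as RS31 was. RS41 was picked after its values were seen, and AT5G52045 on the opposite strand covers 20.9% of its exon length. Other relatives, picked after their values were seen, lay on the same side as the regulators: SR34a (-1.02) with SR34, RS2Z32 (-0.65) with RS2Z33, and SCL30A (-0.58) with SCL33. Others did not: the SC35-like genes SCL30 (0.25) and SCL28 (0.70) and the SR-like gene SR45a (0.14) had ratios above 0 without passing, against -0.71 for SCL33 and -0.06 for SR45.

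Among 9 further PTB and glycine-rich RNA-binding genes, GMUCT was higher for 5 and lower for 2, and 2 did not pass (median 1.20). Over all tested genes 32.1% were higher and 36.9% lower. PTB3, the remaining member of the PTB family, named here after its values were seen, had 22.0 RPKM in GMUCT against 18.8 and 20.1 RPKM in RNA-seq (0.17, adjusted p = 0.131). GR-RBP6 was higher, with 21.6 RPKM in GMUCT against 4.27 and 3.77 RPKM in RNA-seq (2.29), although AT1G18640 on the opposite strand covers 33.6% of its exon length. RZ-1A had the highest ratio of the list, with 120 RPKM in GMUCT against 2.55 and 1.79 RPKM in RNA-seq (5.51). That value is uncertain, because 97.3% of its annotated exon length overlaps AT3G26430 on the same strand. GR-RBP4 (-1.01) and RZ-1C (-0.49) were lower; with the length trend removed, 1 gene of the list was lower.

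Of 14 factors that recognise splice sites, in the U1 particle or beside U2AF, GMUCT was higher for 6 and lower for 7, and 1 did not pass (median -0.13). PRP40A (2.30) and the small U2AF subunit gene U2AF35B (2.25) were the highest, and the U1 protein gene U1A (-1.68) and the large U2AF subunit gene U2AF65A (-1.02) the lowest. On the opposite strand, AT5G42825 covers 33.9% of the exon length of U2AF35B and a lncRNA covers 30.5%, and a lncRNA covers 22.1% of that of U1A. With the length trend removed, 4 of the 14 were lower, while lower calls over all tested genes went from 7468 to 6591. Among 9 kinases and partners of SR proteins GMUCT was lower for 6 and higher for 1, and 2 did not pass (median -0.79). With the length trend removed, 3 were lower and 2 higher; 2 were also higher with centring or the GC trend removed. The kinase genes SRPK4 (-1.44) and AFC2 (1.39) marked the ends of that list, followed by the SR protein importer MOS14 (-1.01) at the low end and SRPK3 (0.30, not past the test) at the high end. No list was tested as a whole.

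**Figure D4:**
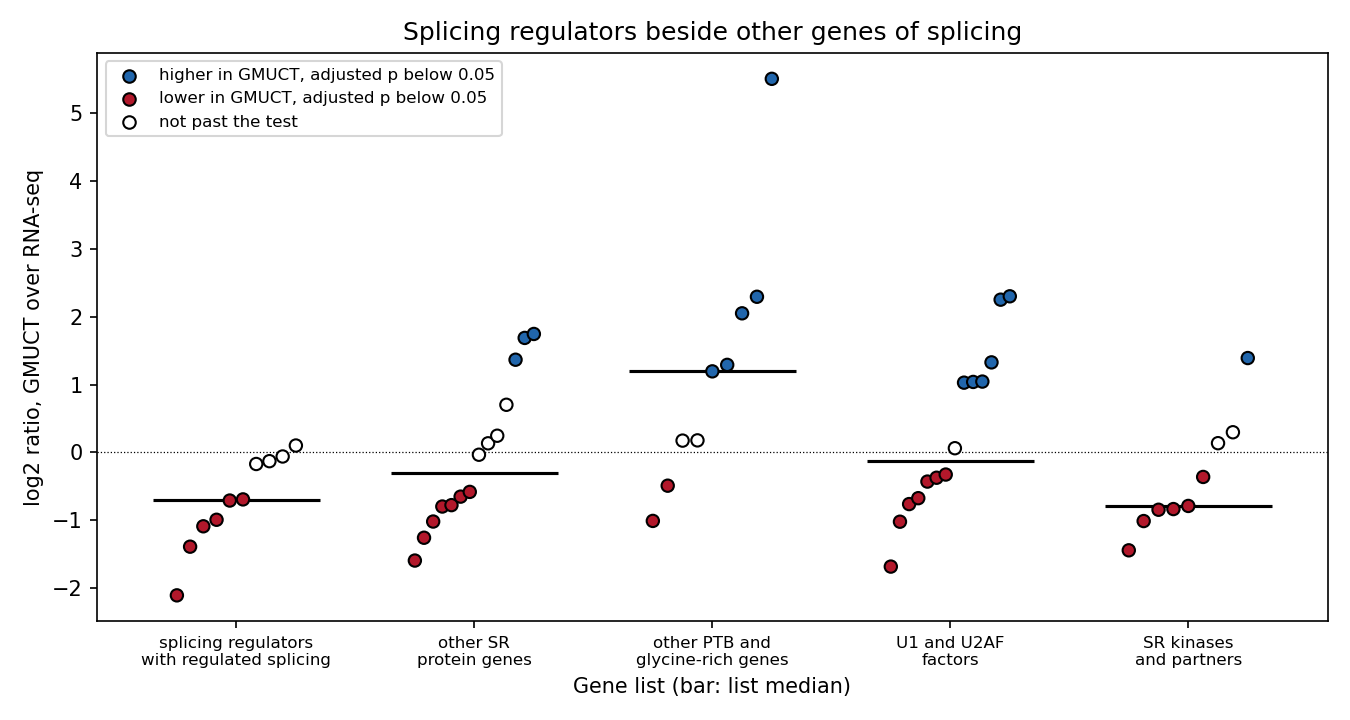
Log2 ratio of GMUCT to RNA-seq for the 10 regulators and 4 lists of other splicing genes; each point is a gene, bars are list medians, blue and red points passed the test on the high and low side, and white points did not. No blue point appears among the 10 regulators, whose median is -0.70, whereas the other SR genes have 3 and the PTB and glycine-rich genes 5.

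The tested genes nearest in level over the 3 libraries were found by Euclidean distance of log2(RPKM + 0.5). Nearest to GRP8, the regulator with the highest ratio, were HMG1 (distance 0.031), RPL15 (0.11) and the ribosomal L39 gene AT2G25210 (0.13). Nearest to RS2Z33, the lowest, were AT5G47570, a subunit of NADH dehydrogenase (0.11), the receptor-like kinase gene AT2G01820 (0.11) and the CTP synthase gene AT4G20320 (0.13). With 3 libraries such nearness says only that levels are alike.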

How the data were processed

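The authors deposited, for each library, a 2-column list, gene identifier and RPKM, with no header. Per the submitters' processing notes, cutadapt 1.4.2 and STAR 2.4.0 were used with build TAIR10. The counting tool, the annotation, the read totals, and how strand and multiple matches were handled are not stated in the sources used. A gene missing from a table was taken as 0.

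Low values were compared with steps of 1 read: 36.7% to 38.8% lay within 0.1 of a whole read at the best read total, where chance gives 20%. A total near 0.5 of the best scored nearly as well, so depth was left unknown and no counting intervals were made.

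Values were analysed as log2(RPKM + 0.5), which understates changes of low genes. A gene was tested if its GMUCT value and RNA-seq mean averaged at least 1 RPKM. The test was limma 3.58.1 in R 4.3.3 (eBayes with trend), two-sided. The procedure was also run on simulated data in which every library had the spread of the RNA-seq pair. Such data could not check whether the lone GMUCT library varies like RNA-seq, so they do not vouch for the p-values. Count models had no place, since values are RPKM. Gene structure and symbols came from the RefSeq annotation of TAIR10.1, which covered 99.3% of tested genes; it differs in name from the authors' build, so no coordinates or sequences are printed. Trends were removed by lowess with a span of 0.3. Named genes were the 10 regulators, DCL1, genes of the tissue marker lists, and the 2 highest and 2 lowest ratios of each further list. The 3 nearest genes to the regulators with the highest and lowest ratio were named too. Others are said to be picked later. The regulators and lists were chosen with earlier results of these data known. Python 3.11.15 was used for the remaining steps.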

Additional observations from a re-analysis of the deposited data

How the results depend on the processing

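The direction and call of SR30, SR34, RS31 and RS2Z33 held in all 9 alternatives with a test. These changed the pseudocount, the filter, the centring, a trend with length, exon number or GC content, or the limma trend. Leaving out an RNA-seq library gave a value with no test, since no residual degrees of freedom remained, so limma counts were not run there. For the 10 regulators no alternative moved the count of lower calls past 1.5 times. Centring each library on its median gave 1 higher call by limma (GRP8, 0.23, adjusted p = 0.048). In that setting higher calls over all tested genes rose as well, from 6489 to 8111. The count of regulators below both RNA-seq libraries by the size rule was 6 at 1.5-fold and 1 at 3-fold. At 2-fold it was 2 with a pseudocount of 1, with centring, or with the exon number or GC trend removed. It was 4 without RNA-seq replicate 1. The median log2 ratio of the 10 was -0.57 with centring, -0.40 with the length trend removed and -0.53 with the exon number trend removed. The median over all tested genes moved too, from -0.07 in the main setting to 0.05, 0.0006 and -0.16 in that order. Single ratios that changed sign were GRP8 (-0.15 for length and -0.15 for exon number), PTB1 (0.060 for exon number, 0.0067 for GC) and SR45 (0.067 with centring, 0.19 for length, 0.22 for exon number, 0.027 for GC). PTB2 lost its call without a filter (-0.99) and fell out at 5 RPKM; SCL33 lost its call for length (-0.30). PTB1 minus PTB2 was 0.54 with the length trend removed, and SR30 minus SR34 was 0.55 with the GC trend removed. With centring, other SR genes had 6 higher calls and kinases and partners 2. With the length trend removed, lower calls were 1 among PTB and glycine-rich genes, 4 among splice-site factors and 3 among kinases and partners. The kinases and partners then had 2 higher calls, as they did with the GC trend removed. Over all tested genes, lower and higher calls were 7468 and 6489 in the main setting. They were 6591 and 6719 with the length trend removed, and 8012 and 6034 with the GC trend removed. The cause of these changes was not tested. No paired analysis was possible because GMUCT and RNA-seq share only 1 replicate number.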

Other observations

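After the values were seen, the longest intron of the 10 regulators was set beside their ratios. The 6 genes lower in GMUCT had longest introns of 624 to 942 nt, and the 4 that did not pass had 275 to 524 nt. Spearman's rho over the 10 genes was -0.66, a description over genes that share the same 3 libraries. The 14 other SR and SR-like genes, on which the split at 600 nt was not made, showed less: 4 of 7 with an intron of 600 nt or more were lower and 1 was higher, against 3 lower and 2 higher of 7 below it, with rho at -0.25. Over all tested genes with an intron, 40.3% of 2549 with an intron of at least 600 nt were lower and 40.7% of 14403 below it, with rho at -0.07.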
